A study of Mus musculus with 21 samples.

Results

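Genes that mark macrophages and neutrophils were followed across 21 mouse mammary tumors, 9 in all: *Cd68*, *Adgre1*, *Csf1r*, *Csf1* and *Mrc1* for macrophages, and *S100a8*, *S100a9*, *Csf3r* and *Retnlg* for neutrophils. They were taken by their symbols from the 49652 genes of the count files, all 9 were found once, and all 9 were among the 19315 genes with enough reads to be tested. Every tumor was driven by NeuNT, an activated rat *Erbb2* cDNA placed in the mouse *Erbb2* locus behind a loxP-flanked stop (FloxNeoNeuNT), which MMTV-CreNLST, a Cre driven by the mammary tumor virus promoter, opens in mammary epithelium. The 9 NeuNT controls comprised 7 tumors of genotype Gata4(loxP/+);FloxNeoNeuNT;MMTV-CreNLST, in which the same Cre removes 1 copy of *Gata4*, and 2 of genotype FloxNeoNeuNT;MMTV-CreNLST. The 12 RhoC tumors had the genotype R26(RhoC/+);FloxNeoNeuNT;MMTV-CreNLST, in which Cre also switches on a *RhoC* transgene at the Rosa26 locus, and its label lists no *Gata4* allele. The labels give no age and no treatment. The controls came from 9 mice and the RhoC tumors from 8, with 4 tumors of mouse P497 (R-13, R-14, R-15 and R-16) and 2 of mouse N9255 (R-6 and R-7), and R-18, whose label names no mouse, was counted as a mouse of its own. The comparison asked whether the immune marker genes differ between the cohorts and whether they go with the level of *Csf3*, a cytokine gene close to *Erbb2*.

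Macrophages and neutrophils both arise from myeloid progenitors, and each lineage depends on a colony stimulating factor. *Csf1* encodes M-CSF, whose receptor Csf1r is needed for the survival of most macrophages, and *Csf3* encodes G-CSF, whose receptor Csf3r drives the production and release of neutrophils. *Cd68* encodes a lysosomal glycoprotein, *Adgre1* the F4/80 antigen and *Mrc1* the mannose receptor of tissue macrophages. S100a8 and S100a9 pair to form calprotectin, an abundant protein of neutrophils that stressed or differentiating keratinocytes also make, and *Retnlg* encodes a resistin-like protein of neutrophils. In mammary tumors both lineages are common stromal cells.

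The genes lie apart in the genome, except for the calprotectin pair. On GRCm38, *S100a8* (ENSMUSG00000056054.9) lies at chr3:90668978-90670035 and *S100a9* (ENSMUSG00000056071.12) at chr3:90692632-90695721, *Csf3r* (ENSMUSG00000028859.14) at chr4:126024550-126044440 and *Retnlg* (ENSMUSG00000022651.6) at chr16:48872621-48874496. *Csf3* (ENSMUSG00000038067.2) lies at chr11:98701263-98703629, 263.5 kb beyond the end of *Erbb2*. Of the 9 genes, *Csf1r* alone overlaps another gene of the deposited table, *Hmgxb3*, and whether counting used the strand is not given in the sources used here, so reads of this pair may not have been told apart.

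The upstream sequences of the 4 neutrophil genes are shown because all 4 had positive slopes on the level of *Csf3* at an unadjusted p under 0.05 (edgeR). Each is the 250 bases before the gene's start in RefSeq, on GRCm38.p6, read 5′ to 3′ on the strand of the gene. Capitals mark matches, on either strand, to TTNNGNAA, letters that include many sites of the C/EBP factors of granulocytes, and to GAGGAA, the core of many PU.1 sites.
*S100a8*, chr3:90668821-90669070, plus strand: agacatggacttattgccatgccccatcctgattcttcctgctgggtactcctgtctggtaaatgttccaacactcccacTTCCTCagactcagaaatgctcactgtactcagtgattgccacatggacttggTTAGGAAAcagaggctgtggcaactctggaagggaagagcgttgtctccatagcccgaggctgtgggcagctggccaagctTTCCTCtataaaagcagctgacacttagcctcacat
*S100a9*, chr3:90695722-90695971, minus strand: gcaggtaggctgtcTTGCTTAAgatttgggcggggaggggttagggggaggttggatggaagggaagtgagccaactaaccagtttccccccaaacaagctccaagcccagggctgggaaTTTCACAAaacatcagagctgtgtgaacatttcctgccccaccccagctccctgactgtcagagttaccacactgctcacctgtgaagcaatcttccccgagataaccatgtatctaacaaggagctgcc
*Csf3r*, chr4:126024409-126024658, plus strand: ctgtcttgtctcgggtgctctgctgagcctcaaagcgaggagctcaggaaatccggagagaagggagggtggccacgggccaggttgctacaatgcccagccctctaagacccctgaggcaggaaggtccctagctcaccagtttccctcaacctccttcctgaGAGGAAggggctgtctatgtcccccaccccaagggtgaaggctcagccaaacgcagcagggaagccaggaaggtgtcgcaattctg
*Retnlg*, chr16:48872358-48872607, plus strand: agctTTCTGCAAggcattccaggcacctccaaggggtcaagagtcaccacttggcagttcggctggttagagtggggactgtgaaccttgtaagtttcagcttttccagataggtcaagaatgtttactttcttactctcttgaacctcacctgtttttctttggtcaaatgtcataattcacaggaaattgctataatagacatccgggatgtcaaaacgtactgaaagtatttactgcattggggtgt
TTNNGNAA stood 1 time before *S100a8*, 2 times before *S100a9*, 1 time before *Retnlg* and 0 times before *Csf3r*. GAGGAA stood 2 times before *S100a8* and 1 time before *Csf3r*. Over all 32851 windows of this length, 36.8% held TTNNGNAA and 23.3% held GAGGAA. Of the 9 genes, 7 had a window in the table, and 5 of these 7 held the first motif and 4 the second. *Adgre1* and *Csf1r* were not in the table. A match is a description of letters.

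Reads of a gene were divided by the library size, adjusted by TMM, to give CPM, and the tumors held 47309780 to 100741339 counted reads each. Levels between genes were compared on FPKM, which also divides by gene length and which the authors deposited. By the median FPKM over 21 tumors, the order was *Csf1r* (23.4), *Cd68* (20.4), *S100a8* (16), *Csf1* (15.5), *Mrc1* (10.5), *Adgre1* (10.3), *Csf3r* (3.73), *S100a9* (3.36) and *Retnlg* (0.967). Neighbours in this order often changed places within a tumor. *Cd68* was above *Csf1r* in 11 of 21 tumors, *Adgre1* above *Mrc1* in 10, and *S100a9* above *Csf3r* in 10, so these pairs had no fixed order. *S100a8* was above *S100a9* in 21 of 21 tumors and *Cd68* above *Adgre1* in 20.

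The genes differed in how much they varied between tumors. The SD of log2 CPM over the 21 tumors was 0.41 for *Csf1*, 0.55 for *Cd68*, 0.77 for *Csf1r* and 0.86 for *Adgre1*, beside a median SD of 0.70 over all tested genes. It was 1.08 for *Csf3r* and 1.28 for *Mrc1*. It was 2.54 for *Retnlg*, 2.56 for *S100a8* and 2.77 for *S100a9*, which placed these 3 at percentiles 97.8 to 98.5 of all tested genes. The plot of levels in every tumor shows both cohorts spread over the range of each gene.

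**Figure D1:**
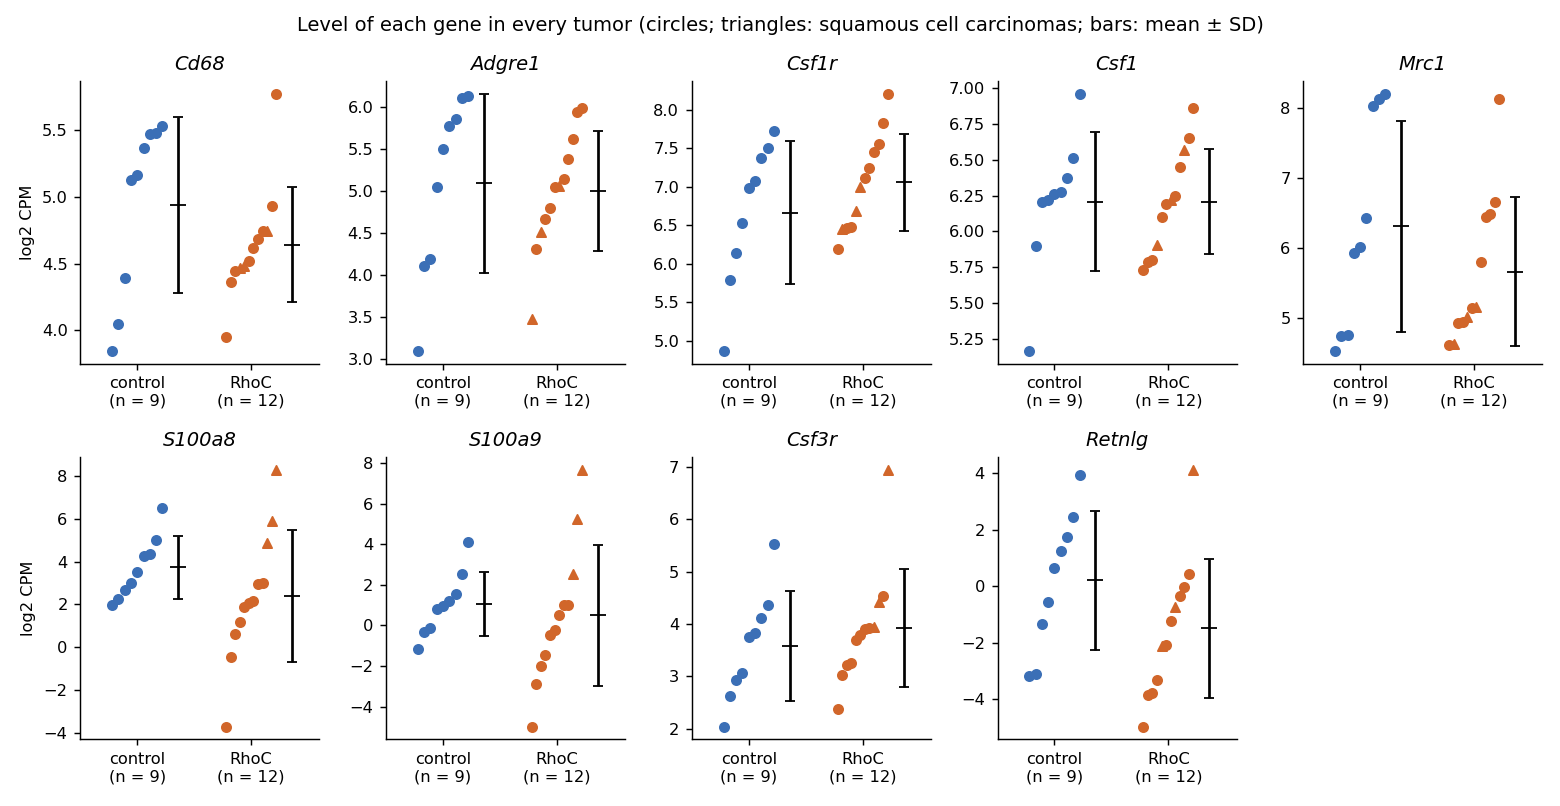
Level of each of the 9 genes in every tumor, as log2 CPM with a prior count of 2, for 9 NeuNT controls (blue) and 12 RhoC tumors (orange); triangles are the 3 squamous cell carcinomas and bars give mean ± SD. The cohorts overlap for every gene, and the RhoC tumor R-6 is the highest tumor for *S100a8*, *S100a9*, *Csf3r* and *Retnlg*.

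None of the 9 genes passed the test across all genes between the cohorts. With edgeR's quasi-likelihood test and Benjamini-Hochberg adjustment, 0 of 9 genes were called higher in RhoC tumors, where 0.0932% of the 19315 tested genes were, and 0 were called lower, where 0.129% were. At an unadjusted p under 0.05 the count was also 0 of 9, beside 20.5% of all tested genes. DESeq2, which called 6.24% of tested genes at an adjusted p under 0.05, called 0 of the 9 as well. In bulk tumor RNA, fewer cells of a type and less RNA per cell cannot be told apart.

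*Cd68* ranged from 14.3 CPM through a median of 35.8 to 46.4 in controls, and from 15.4 through 23.7 to 54.7 in RhoC tumors. Only 1 of 12 RhoC tumors, R-10, exceeded the control median. The log2 fold change, RhoC over control, was -0.35 ± 0.23 (SE; edgeR, adjusted p = 0.400), and the difference in mean log2 CPM was -0.29 (2-sided exact permutation test, p = 0.229; n = 12 and 9). Neither test called the lower levels in RhoC tumors, which does not show that the cohorts are alike, and both took tumors of 1 mouse as independent.

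*Adgre1* had its lowest, median and highest values at 8.53, 45.1 and 70.2 CPM in controls and at 11.1, 33.3 and 63.4 CPM in RhoC tumors. The log2 fold change was -0.23 ± 0.34 (SE; edgeR, adjusted p = 0.723). For *Csf1r* these values were 29.1, 126 and 212 CPM in controls and 73.1, 133 and 296 CPM in RhoC tumors, with a log2 fold change of 0.29 ± 0.31 (SE; edgeR, adjusted p = 0.609). Control N-9 was the lowest tumor for both receptors, and R-15 was the highest for *Csf1r*. *Csf1*, the ligand, varied least, from 35.8 through 76.6 to 125 CPM in controls and from 53.0 through 73.8 to 116 CPM in RhoC tumors. Its log2 fold change was -0.02 (edgeR, adjusted p = 0.953), with an approximate 95% interval from -0.38 to 0.33.

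*Mrc1* was high in a few tumors of both cohorts. The 4 highest tumors stood at 263 to 296 CPM, the controls N-3 (296), N-17 (280) and N-4 (263) and the RhoC tumor R-10 (281), and the next highest, R-16, was at 101 CPM. The cohorts had medians of 64.6 CPM in controls and 35.3 CPM in RhoC tumors, and minima of 23.0 and 24.5 CPM. The log2 fold change was -0.86 ± 0.54 (SE; edgeR, adjusted p = 0.369). The same 4 tumors did not stand apart for the receptor *Csf1r*, where N-4 was at 92.3 CPM and R-10 at 188 CPM. They were among the highest for *Cd68*, at 54.7 CPM in R-10, 44.7 in N-3, 44.3 in N-17 and 41.2 in N-4. Of the other tumors only N-8, at 46.4 CPM, reached this range. For *Adgre1* they stood at 70.2 CPM in N-3, 61.4 in R-10, 58.0 in N-4 and 54.5 in N-17. Of the other tumors only N-15 (69.0 CPM) and R-15 (63.4 CPM) did so there. Summed CPM of 6 adipocyte genes was 626.7 in N-17, 62.6 in R-10, 43.8 in N-4 and 16.7 in N-3, beside a median of 4.24 over the controls and 5.46 over the RhoC tumors. It was also 66.8 in R-6 and 20.1 in R-2, where *Mrc1* was at 35.6 and 24.5 CPM. Summed CPM of 7 endothelial genes was 824 in N-17, 539 in R-10 and 439 in N-4, the 3 highest tumors, and 367 in N-3, with 419 in R-12, where *Mrc1* was at 87.0 CPM. The part of either cell type in the *Mrc1* level was not tested.

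For the calprotectin genes the fitted fold and the typical tumor went in opposite directions. *S100a8* ranged from 3.95 through 11.5 to 90.8 CPM in controls and from 0.0443 through 4.33 to 317 CPM in RhoC tumors. The median RhoC tumor lay below 8 of 9 controls, while the log2 fold change was 0.73 ± 1.04 (SE; edgeR, adjusted p = 0.712) and the difference in mean log2 CPM was -1.33 (2-sided exact permutation test, p = 0.252; n = 12 and 9). *S100a9* ranged from 0.414 through 1.93 to 17.4 CPM in controls and from 0 through 1.11 to 204 CPM in RhoC tumors. Its log2 fold change was 2.48 ± 1.32 (SE; edgeR, adjusted p = 0.291), and the difference in mean log2 CPM was -0.58 (2-sided exact permutation test, p = 0.653; n = 12 and 9). The fitted fold change compares mean levels, of which R-6 holds the largest share for both genes, and the difference of logs weighs each tumor alike. R-21 had 0 reads of *S100a9* and 3 of *S100a8*.

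*Csf3r*, the receptor, ranged from 4.09 through 13.4 to 46.1 CPM in controls and from 5.16 through 14.4 to 124 CPM in RhoC tumors. The log2 fold change was 0.57 ± 0.53 (SE; edgeR, adjusted p = 0.555). *Retnlg* ranged from 0.0781 through 1.53 to 15.1 CPM in controls and from 0 through 0.298 to 17.4 CPM in RhoC tumors. Of the 12 RhoC tumors R-6 alone exceeded the control median, and the next, R-10, was at 1.31 CPM. Its log2 fold change was -0.82 ± 1.10 (SE; edgeR, adjusted p = 0.693), and the difference in mean log2 CPM was -1.70 (2-sided exact permutation test, p = 0.133; n = 12 and 9). With the counts of each mouse summed, the exact permutation p of the 9 genes went from 0.119 to 0.902 (n = 8 and 9 mice). R-6 and the control N-8 were the 2 highest tumors for *S100a8*, *Csf3r* and *Retnlg*.

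Leaving out 1 tumor, R-6, turned the direction of the cohort difference for *S100a8* and *Csf3r* and moved that of *S100a9* and *Retnlg*. R-6 exceeded the second highest tumor 3.49 times for *S100a8*, 5.41 times for *S100a9*, 2.68 times for *Csf3r* and 1.15 times for *Retnlg*. Without R-6 the log2 fold change was -0.99 for *S100a8*, 0.29 for *S100a9*, -0.18 for *Csf3r* and -2.96 for *Retnlg*. For *Retnlg* the unadjusted p was then 0.00393 and the adjusted p 0.129 (edgeR). Without the control N-8 it was instead 0.08 for *Retnlg*. DESeq2 gave -0.22 for *S100a8* and -0.18 for *Csf3r* with its replacement of outlying counts, and 0.76 and 0.58 without that replacement. For *S100a9* DESeq2 gave 1.13 with and 2.52 without it. Voom, which fits log values, gave -1.57 for *S100a8* and -0.93 for *S100a9*, and -1.99 and -1.46 with mouse as a random effect. With the counts of each mouse summed, edgeR gave 0.0066 for *S100a8*, 1.74 for *S100a9*, 0.17 for *Csf3r* and -1.25 for *Retnlg*. For the macrophage genes *Cd68*, *Adgre1*, *Csf1r* and *Mrc1*, the sign of the fold change was kept whichever of the 21 tumors was left out, as the plot of cohort differences shows.

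**Figure D2:**
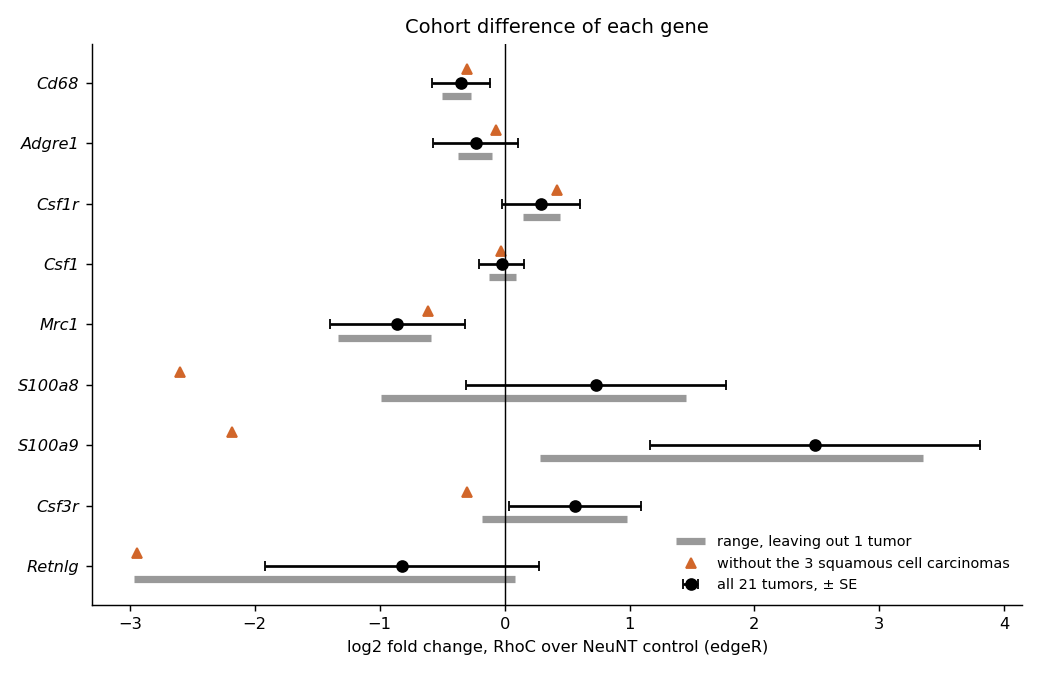
Log2 fold change of each gene, RhoC over NeuNT control, from edgeR with all 21 tumors (black, ± SE), with the range over 21 fits that each left out 1 tumor (grey) and the value without the 3 squamous cell carcinomas (orange triangles). The 3 estimates lie close together for *Cd68*, *Adgre1*, *Csf1r* and *Csf1* and far apart for *S100a8*, *S100a9* and *Retnlg*.

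R-6 is 1 of 3 tumors, with R-13 and R-14, that the study's sample table gives as squamous cell carcinomas, all from the RhoC cohort. In these 3 tumors *S100a8* stood at 29.0 to 317 CPM, against 0.0443 to 8.02 CPM in the other 9 RhoC tumors. *S100a9* stood at 5.68 to 204 CPM against 0 to 1.98 CPM. For both genes the squamous and the other RhoC tumors did not overlap, which is given as a description. R-13 and R-14 share mouse P497, and the share of all genes that part these tumors in the same way is not given here. Among the other RhoC tumors the histology of R-18 and R-21 is not given, and R-21 held the lowest value of both genes. None of the controls is given as squamous, so this split lies within the RhoC cohort. *Retnlg*, at 0.563 CPM in R-13 and 0.197 CPM in R-14, lay below the control median of 1.53 CPM, and *Csf3r*, at 15.3 and 21.5 CPM, lay within the range of the other RhoC tumors.

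Without the 3 squamous tumors, the log2 fold change was -2.6 for *S100a8* (unadjusted p = 0.00223), -2.18 for *S100a9* (unadjusted p = 0.0159) and -2.94 for *Retnlg* (unadjusted p = 0.00970), and none passed the adjusted threshold, the smallest adjusted p being 0.143 (edgeR). Of the 9 genes, 3 had an unadjusted p under 0.05 in this fit, beside 2917 of all 19046 genes tested there (15.3%).

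The summed level of a keratinocyte list was highest in the same tumors. The summed CPM of 16 genes of squamous keratinocytes was 15580 in R-6, 6172 in R-13 and 2807 in R-14, and 7.66 to 1301 in the other RhoC tumors. In controls it was 19.9 to 2362, with the maximum in the spindle cell tumor N-1, whose *S100a8* was 8.08 CPM. Mean CPM in RhoC tumors and controls, for genes chosen after their values were seen, was 669 and 112 for *Krt6a*, 549 and 56.3 for *Krt16* and 587 and 157 for *Dsg3*, with RhoC means of 312, 165 and 367 without R-6. It was 1.13 and 37.9 for *Krt10* and 0.250 and 6.15 for *Krt1*, with control means of 7.14 and 1.23 without N-1. Of the 16 genes, 9 were tested and 0 were called between cohorts in either direction, with *Krt10* at a log2 fold change of -5.07 ± 1.10 (SE; edgeR, adjusted p = 0.0536), or -2.66 without N-1, and *Krt16* at 3.28 ± 1.95 (SE; adjusted p = 0.341), or 1.55 without R-6. The part of keratinocytes in the levels of *S100a8* and *S100a9* was not tested.

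**Figure D3:**
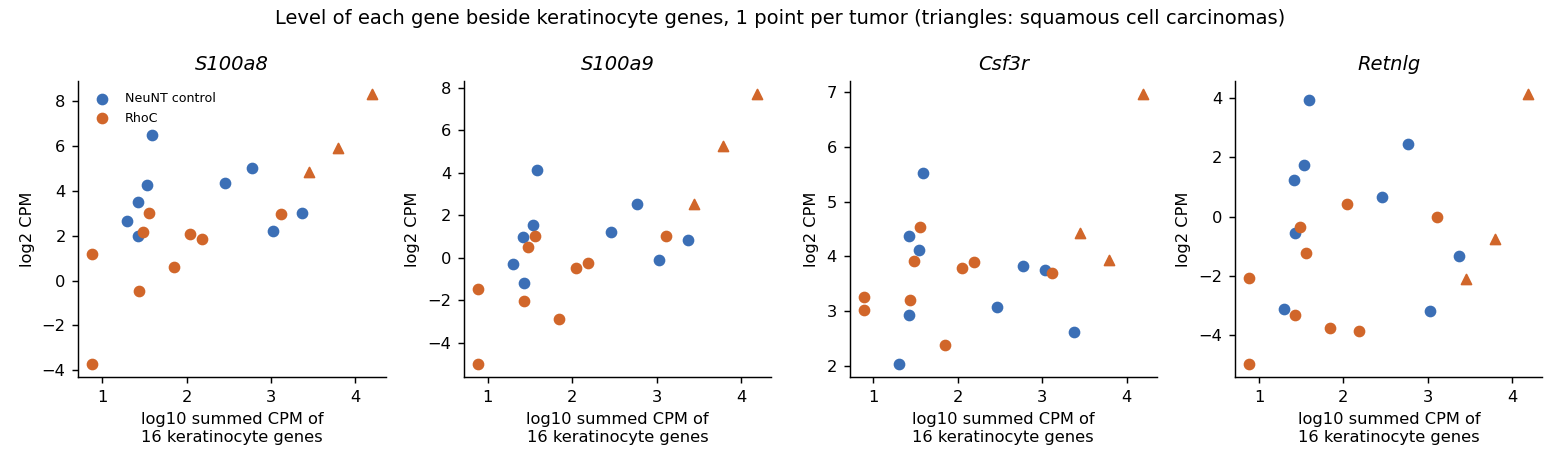
Log2 CPM of *S100a8*, *S100a9*, *Csf3r* and *Retnlg* against the log10 of the summed CPM of 16 keratinocyte genes, 1 point per tumor, controls in blue, RhoC tumors in orange and squamous cell carcinomas as triangles. The 3 squamous tumors are at the right, high for *S100a8* and *S100a9*, while for *Csf3r* and *Retnlg* R-6 stands above the other 2.

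The ratio between the calprotectin genes also differed between these tumors. *S100a9* was 0.645 times *S100a8* in R-6 and 0.628 times in R-13, on CPM. In the other tumors the ratio went from 0 in R-21, with 0 reads of *S100a9* and 3 of *S100a8*, to 0.311 in R-7. It was 0.196 in R-14, also a squamous tumor, and 0.192 in N-8, the control with the most of both. The CPM of *S100a8* per CPM of *Csf3r* was 3.93 in R-13, above every other tumor, and 2.56 in R-6, close to 2.47 and 2.30 in the controls N-7 and N-9. It was 1.97 in N-8. It was 1.35 in R-14, the other squamous tumor, within the range of the controls (0.348 to 2.47), and 0.00464 in R-21.

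Tumors of 1 mouse differed widely in the calprotectin genes. In mouse N9255, R-6 and R-7 differed 147-fold for *S100a9*, 70.7-fold for *S100a8*, 23.0-fold for *Retnlg* and 8.15-fold for *Csf3r*. They differed 1.01-fold (*Mrc1*) to 1.74-fold (*Csf1r*) for the 5 macrophage genes. In mouse P497, the 4 tumors spread 45.9-fold for *S100a9* and 16.5-fold for *S100a8* but 1.55-fold for *Csf3r*, and the macrophage genes spread from 1.16-fold for *Cd68* and 1.68-fold for *Csf1* through 2.87-fold for *Csf1r* to 4.08-fold for *Mrc1* and 5.69-fold for *Adgre1*. *Csf3* itself spread 3.91-fold in N9255 and 10.2-fold in P497.

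*Csf3*, the ligand of *Csf3r*, varied widely in controls. It stood at 47.5 CPM in N-8, 74.6 in N-9, 104 in N-7 and 153 in N-17, at 1.53 to 3.46 CPM in N-3, N-15 and N-1, and at 0.0419 and 0.116 CPM in N-4 and N-6. The gaps between these sets of controls were 3.73 and 3.43 in log2 CPM, on counts summed and normalized by mouse. In RhoC tumors it ran from 0.301 through a median of 2.25 to 24.9 CPM, the maximum being R-6. The log2 fold change was -2.86 ± 1.06 (SE; edgeR, adjusted p = 0.151), and the difference in mean log2 CPM was -1.30 (2-sided exact permutation test, p = 0.356; n = 12 and 9). *Grb7*, a neighbour of *Erbb2*, was called lower in RhoC tumors, with a log2 fold change of -3.74 ± 0.49 (SE; edgeR, adjusted p = 0.000998). In single tumors *Grb7* and *Csf3* parted, with *Grb7* at 2418 CPM in N-6 where *Csf3* was 0.116 CPM.

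All 4 neutrophil genes were higher in tumors with more *Csf3*, at unadjusted p-values, and none of the 5 macrophage genes passed such a p. In a model with cohort and log2 CPM of *Csf3*, a doubling of *Csf3* went with a log2 rise of 0.27 ± 0.07 in *Csf3r* (SE; edgeR, unadjusted p = 0.000805, adjusted p = 0.348), which ranked 32 of 19314 genes by p. For *S100a8* the slope was 0.49 ± 0.15 (SE; unadjusted p = 0.00353, adjusted p = 0.385), for *S100a9* 0.60 ± 0.19 (SE; unadjusted p = 0.00527, adjusted p = 0.391) and for *Retnlg* 0.52 ± 0.16 (SE; unadjusted p = 0.00372, adjusted p = 0.385).

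The adjusted threshold was passed by 0 of 9 genes with edgeR, and by 0% of all genes with a positive slope and 0% with a negative slope. At an unadjusted p under 0.05 the counts were 4 of 9 genes and 9.68% of all genes. DESeq2 on the same counts called *Csf3r* (adjusted p = 0.0222), *S100a8* and *S100a9* (both adjusted p = 0.0303) and *Retnlg* (adjusted p = 0.0354), each with a positive slope, beside 0.74% of all genes called with a positive slope. Its slopes were 0.27, 0.49, 0.59 and 0.53 for these 4 genes, so the tools differed in their calls and hardly in the slopes.

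R-6 weighed on these slopes as well. Without it the slope was 0.18 for *Csf3r* (unadjusted p = 0.00541), 0.35 for *S100a8* (unadjusted p = 0.0216), 0.42 for *S100a9* (unadjusted p = 0.0437) and 0.31 for *Retnlg* (unadjusted p = 0.0758; all edgeR), so 3 of these 4 genes kept an unadjusted p under 0.05. Without all 3 squamous tumors it was 0.17, 0.28, 0.36 and 0.33 in the same order, with the same 3 genes under 0.05.

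Slopes on *Csf3* were also read for lists of other genes. Of the 9 tested genes of squamous keratinocytes, 9 had a positive slope, 2 of them at an unadjusted p under 0.05 (*Krt16*, 1.21 ± 0.50, and *Krt6b*, 1.34 ± 0.61; SE; edgeR, chosen after their values were seen), 0 were called and the median slope was 0.87. Of 7 neutrophil chemoattractants, 7 had a positive slope, 0 at that p, with a median of 0.24. Their part in the slopes of *S100a8* and *S100a9* was not tested.

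The slopes of the macrophage genes were small. They were -0.05 ± 0.04 for *Cd68*, -0.07 ± 0.06 for *Adgre1*, -0.01 ± 0.05 for *Csf1r*, 0.01 ± 0.03 for *Csf1* and -0.10 ± 0.08 for *Mrc1* (SE; edgeR), with unadjusted p-values from 0.229 to 0.908. The heat map of all tumors by *Csf3* level shows the neutrophil genes beside the macrophage genes in that order.

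**Figure D4:**
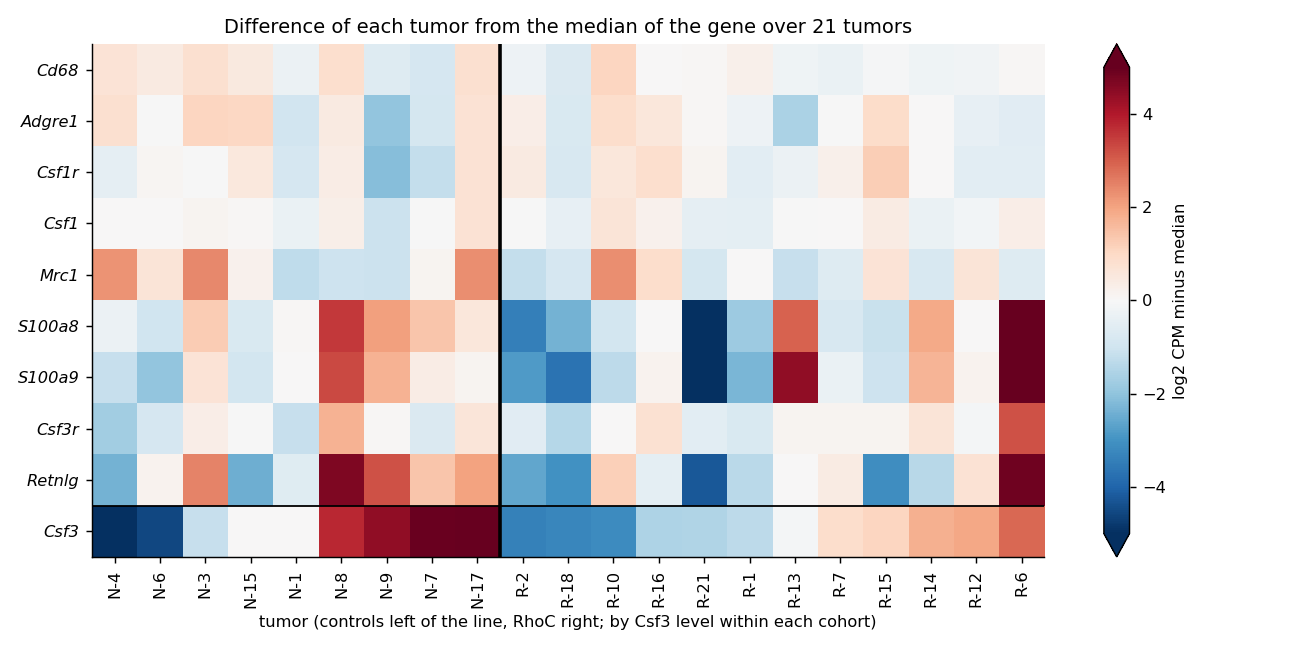
Log2 CPM of each gene in each tumor minus the median of that gene over 21 tumors, with 9 controls left of the line and 12 RhoC tumors right of it, each cohort ordered by *Csf3* (bottom row); colors saturate at differences of 5. *S100a8* and *Retnlg* are highest in R-6 and N-8, *S100a9* in R-6 and R-13, and *Mrc1* is high in N-3, N-4, N-17 and R-10.

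Since tumors of 1 mouse are not independent, the relation to *Csf3* was also computed over 17 mice, with the counts of a mouse summed. In all, 9 relations were computed. Pearson's r was 0.59 for *Csf3r* (permutation test, 2-sided, p = 0.0125), with Spearman's rho 0.65 (permutation p = 0.00610). For *S100a8* r was 0.57 (permutation p = 0.0138) and rho 0.77 (permutation p = 0.000550). For *S100a9* r was 0.59 (permutation p = 0.0125) and rho 0.74 (permutation p = 0.00101), and for *Retnlg* r was 0.64 (permutation p = 0.00720) and rho 0.67 (permutation p = 0.00416). Among the macrophage genes r went from -0.34 for *Adgre1* to 0.05 for *Csf1*, with permutation p-values of 0.181 or more.

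The relations were recomputed in subsets of mice. Without the 2 mice farthest from the median of *Csf3* (those of N-4 and N-17, 15 mice left), r was 0.66 for *S100a8* and 0.67 for *S100a9* (permutation p = 0.00677 and 0.00595), 0.60 for *Retnlg* (permutation p = 0.0209) and 0.48 for *Csf3r* (permutation p = 0.0688). Within the 8 RhoC mice r was 0.71 for *Csf3r* (exact permutation p = 0.0266), 0.74 for *S100a9* (exact p = 0.0328), 0.66 for *S100a8* (exact p = 0.0698) and 0.60 for *Retnlg* (exact p = 0.120). Leaving out mouse N9255 as well, r among the 7 other RhoC mice was 0.58, 0.61, 0.49 and 0.37 in the same order, with exact permutation p-values of 0.180, 0.145, 0.272 and 0.400. Within the 9 control mice r was 0.69 for *S100a9* (exact permutation p = 0.0394), 0.66 for *S100a8* (exact p = 0.0534), 0.65 for *Retnlg* (exact p = 0.0636) and 0.62 for *Csf3r* (exact p = 0.0748), over *Csf3* levels with the 2 wide gaps given above. Spearman's rho was 0.48 to 0.62 there, with exact permutation p-values from 0.0857 to 0.194. Over all 16 mice without N9255, r was 0.57 to 0.63 for the 4 neutrophil genes, with permutation p-values from 0.00943 to 0.0190.

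**Figure D5:**
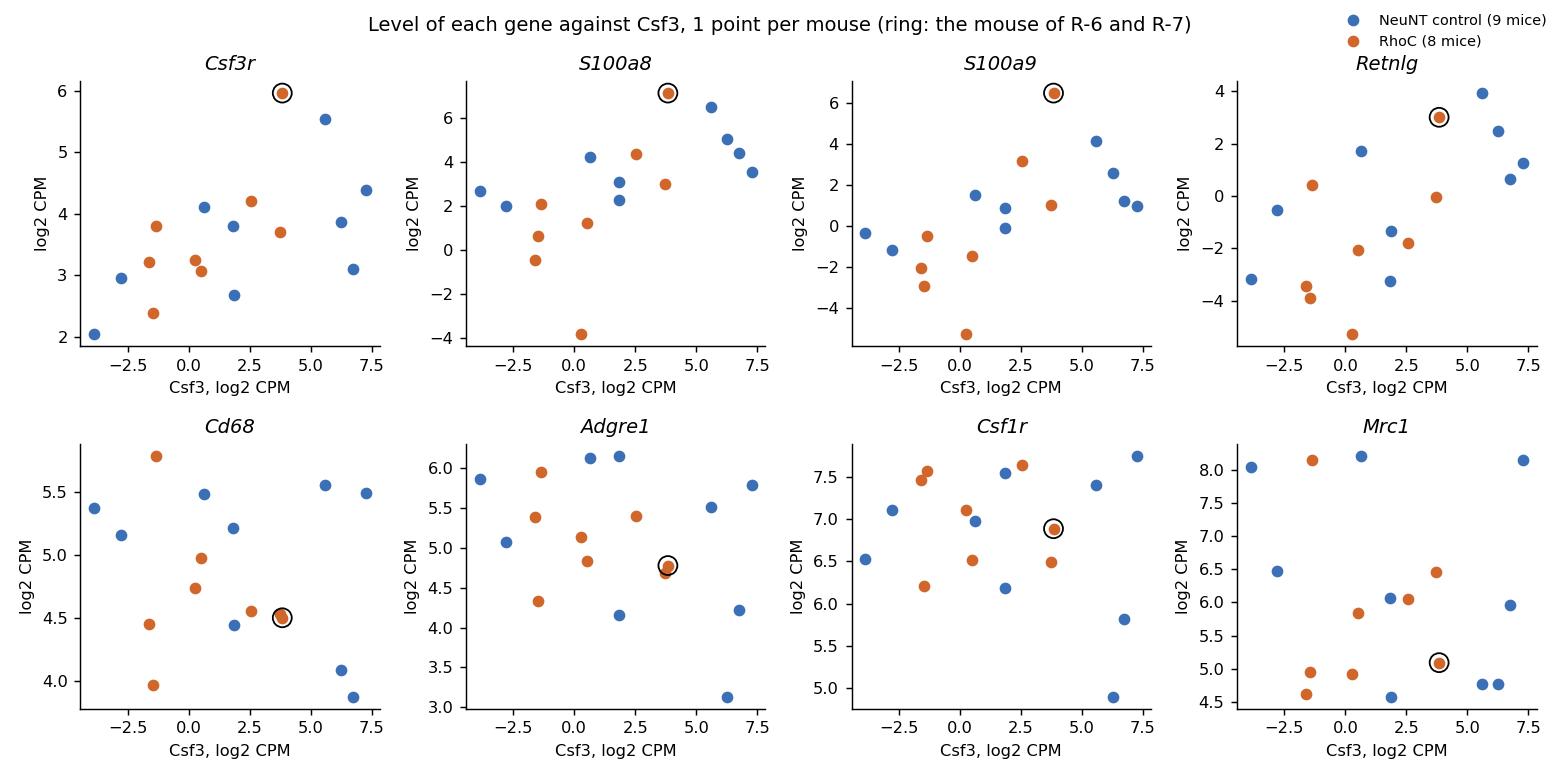
Log2 CPM of 4 neutrophil genes and 4 macrophage genes against log2 CPM of *Csf3*, 1 point per mouse with the reads of its tumors summed, 9 control mice in blue and 8 RhoC mice in orange; the ring marks the mouse of R-6 and R-7. *Csf3r*, *S100a8*, *S100a9* and *Retnlg* rise with *Csf3* (r = 0.59, 0.57, 0.59 and 0.64), while r is -0.23 for *Cd68*, -0.34 for *Adgre1*, -0.20 for *Csf1r* and -0.17 for *Mrc1*.

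Whether the slope on *Csf3* differed between the cohorts was tested as an interaction. The slope in RhoC tumors minus that in controls was 1.01 for *S100a9* (unadjusted p = 0.00882, adjusted p = 0.161), 0.73 for *S100a8* (unadjusted p = 0.0116, adjusted p = 0.172), 0.24 for *Csf3r* (unadjusted p = 0.0872) and 0.27 for *Retnlg* (unadjusted p = 0.381; all edgeR). None of the 9 was called, beside 0.0984% of all genes, and 2 of 9 had an unadjusted p under 0.05, beside 18% of all genes. With log2 CPM of *Grb7* in place of *Csf3* in the model, 0 of the 9 genes had an unadjusted p under 0.05. The slopes on *Grb7* had wide errors, 0.68 ± 0.41 for *S100a8*, 0.71 ± 0.49 for *S100a9*, 0.88 ± 0.53 for *Retnlg* and 0.16 ± 0.19 for *Csf3r* (SE; edgeR), so they do not show that *Csf3* and *Grb7* differ in this relation, which was not tested.

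Other genes of each lineage were counted from lists. Of 32 further macrophage and monocyte genes, 31 were tested, and 0 were called between cohorts, with 11 positive and 20 negative log2 fold changes and a median of -0.25, beside -0.01 over all genes tested. Without N-8 the median of the 31 was -0.02. At an unadjusted p under 0.05 stood 2 of these 31, beside 20.5% of all genes, both lower in RhoC tumors: *Gpnmb*, a lysosomal glycoprotein of foamy macrophages, at -1.86 ± 0.66 (SE; edgeR, adjusted p = 0.135), and *Mertk*, a receptor for dying cells, at -0.50 ± 0.23 (SE; adjusted p = 0.226). On *Csf3*, 8 of the 31 had a positive slope, 0 were called and the median slope was -0.03, beside -0.000899 over all genes. Of 12 macrophage polarization genes, 0 were called, with 4 higher and 1 lower in RhoC tumors at an unadjusted p under 0.05, beside the same 20.5%, and a median of -0.21, or 0.36 without N-15. *Tnf*, an inflammatory cytokine, was at 1.55 ± 0.61 (SE; edgeR, adjusted p = 0.171) and *Il1b* at 1.20 ± 0.52 (SE; adjusted p = 0.204).

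Of 25 neutrophil genes, the 4 described above included, 20 were tested, and 0 were called between cohorts, with 12 positive and 8 negative fold changes, 1 positive and 3 negative ones at an unadjusted p under 0.05 (20.5% of all genes), and a median of 0.44, or -0.55 without R-6. The 3 negative ones were the granule protein genes *Mpo* (-3.74, or -0.96 without N-8) and *Ngp* (-2.66, or -0.60 without N-8), and *Mmp8*. The smallest p of the list, among genes with a mean log2 CPM over 0, belonged to *Mmp9*, a gelatinase, at 2.6 ± 0.93 (SE; edgeR, adjusted p = 0.140). Next was *Mmp8*, neutrophil collagenase, at -1.40 ± 0.67 (SE; adjusted p = 0.238), or -0.68 without N-8. On *Csf3*, 18 of the 20 had a positive slope and 9 of them an unadjusted p under 0.05, beside 9.68% of all genes in either direction, none had a negative slope at that p, 0 were called after adjustment and the median slope was 0.29. Besides the 4 members these 9 were, chosen after their values were seen, *Stfa2l1*, *Cxcr2*, *Mmp8*, *Fpr2* and *Trem1*, with slopes of 0.45, 0.33, 0.26, 0.31 and 0.21. The 2 tested genes with a negative slope, *Lcn2* (-0.14) and *Ltf* (-0.09), are also made by mammary epithelium. The part of epithelium in the slopes of this list, positive or negative, was not tested. *Lcn2*, *Ltf* and *Wfdc21* held 13.7% to 99.6% of the summed CPM of the list, with a median of 97.1%, so its summed level was mostly that of *Lcn2* and *Ltf*.

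The colony stimulating factors and their receptors counted 13 genes, of which 12 were tested and 0 called, with 4 higher and 1 lower in RhoC tumors at an unadjusted p under 0.05 (20.5% of all genes) and a median of 0.39, or 0.135 without R-2. *Flt3l*, a ligand for dendritic cell progenitors, was at 1.41 ± 0.60 (SE; edgeR, adjusted p = 0.197), but at 0.17 without R-2, which held 47.1 CPM. Of 8 neutrophil chemoattractants 7 were tested, 6 with a positive fold change, 3 of them at an unadjusted p under 0.05, 0 called, and the median was 1.61, or 0.33 without R-6. The platelet chemokine gene *Ppbp* was at 3.70 ± 1.21 (SE; edgeR, adjusted p = 0.117) and the cytokine gene *Il1a* at 3.14 ± 1.04 (SE; adjusted p = 0.120). Their summed CPM was 1023 in R-6, 274 in R-14 and 188 in R-13, 3.51 to 74.0 in the other RhoC tumors and 14.6 to 75.1 in controls, so the squamous tumors stood apart here too. Of 8 macrophage chemoattractants, all tested, 0 were called, 2 had a positive fold change and the median was -0.58, or -0.16 without N-17. *Ccl8* was at -1.48 ± 0.71 (SE; edgeR, adjusted p = 0.246), or -0.30 without N-17, and *Ccl12* at -0.61 ± 0.40 (SE; adjusted p = 0.395), or -0.27 without N-3.

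Markers of the other cell types were read from the same tumors. Pan leukocyte genes, 8 of 8 tested and 0 called, had a median log2 fold change of 0.10, with summed CPM of 400.5 to 1336 in controls and 417 to 1253 in RhoC tumors. T cell genes had a median of -0.02 (0 of 9 called), dendritic cell genes 0.68 (0 of 8), fibroblast genes 0.19 (0 of 9), endothelial genes -0.18 (0 of 7), luminal genes -0.23 (0 of 10) and basal genes 0.79 (0 of 7). B and plasma cell genes had a median of -2.33 (0 of 4 called, 3 lower at an unadjusted p under 0.05), led by the antibody chain gene *Igkc* at -3.48 ± 0.84 (SE; edgeR, adjusted p = 0.0606) and *Jchain*, the joining chain of antibodies, at -2.76 ± 0.86 (SE; adjusted p = 0.104). Mast cell genes had a median of -1.42 (0 of 5 called) and adipocyte genes -2.33 (0 of 2). Several of these medians turned when 1 tumor was left out: that of adipocyte genes was 1.21 and that of endothelial genes 0.07 without N-17, that of T cell genes 0.16 without N-15, and those of dendritic cell and pan leukocyte genes -0.08 and -0.07 without R-2. The median of mast cell genes was -0.53 without N-4, that of luminal genes -0.02 without N-15 and that of fibroblast genes 0.04 without N-9. The genes of smallest p in the other lists, with their log2 fold changes, were *Lcp1* (-0.42) and *Coro1a* (0.56) of leukocytes, *Cd4* (1.06) and *Lck* (-0.56) of T cells, *Itgax* (0.65) and *Zbtb46* (-0.43) of dendritic cells, and *Hdc* (-1.26) of mast cells. For the stroma and the epithelium they were *Dcn* (-1.57) and *Col1a1* (0.97) of fibroblasts, *Kdr* (-0.58) and *Tek* (-0.60) of endothelium, *Fabp4* (-0.94) of adipocytes, *Esr1* (1.12) and *Elf5* (-0.80) of luminal cells, and *Krt14* (3.05) and *Krt5* (2.88) of basal cells. Their adjusted p-values were 0.143 to 0.570 (edgeR), and leaving out 1 tumor turned *Lck* (0.02 without N-15), *Hdc* (0.86 without N-15) and *Fabp4* (0.13 without N-17). Without N-17, *Kdr* was at -0.02 and *Tek* at -0.21. Of 7 neighbours of *Erbb2*, *Csf3* among them, 4 were called lower in RhoC tumors, *Pgap3* at -5.49 ± 0.53 (SE; edgeR, adjusted p = 1.15e-05), *Stard3* at -5.04 ± 0.55 (SE; adjusted p = 7.16e-05), *Grb7* and *Mien1*. With counts summed by mouse, and with voom and mouse as a random effect, 3 of the 7 were called, without *Mien1* (adjusted p = 0.0629 with edgeR and 0.0848 with voom).

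The genes most like each receptor were named by Spearman's rho over the 21 tumors, among 14511 genes with a mean log2 CPM over 0. Those most like *Csf1r* were *Pld4* (rho = 0.94), *Laptm5* (0.93), *Rab3il1* (0.92), *Cyth4* (0.91) and *Nckap1l* (0.91), and over the 17 mice their rho was 0.90 to 0.96. Of the other members, *Adgre1* was at 0.78 (rank 65), *Csf1* at 0.67 (rank 210), *Cd68* at 0.50 (rank 839) and *Mrc1* at 0.40 (rank 1667). Those most like *Csf3r* were *Cxcr2* (rho = 0.86), which encodes a chemokine receptor of neutrophils, *Gm36684* (0.81), *Cpne2* (0.81), *Ptgfrn* (0.79) and *Mefv* (0.78), with rho of 0.76 to 0.86 over the 17 mice. *S100a9* was at 0.70 (rank 23), *S100a8* at 0.61 (rank 113), the macrophage growth factor gene *Csf1* at 0.54 (rank 329) and *Retnlg*, whose mean level lay under the limit for ranking, at 0.51, with *Cd68*, *Adgre1* and *Mrc1* at 0.26, 0.22 and 0.11. The rho between *Csf1r* and *Csf3r* was 0.39. These values describe the 21 tumors, some of which share a mouse.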

How the data were processed

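RNA of 21 mammary tumors was sequenced from ribosomal-RNA-depleted stranded total RNA libraries. The authors trimmed reads with Trim Galore 0.5.0, checked them with FastQC 0.11.5, aligned them to GRCm38.p6 with STAR 2.6.0c and counted uniquely mapping reads with HTSeq 0.6.1p2, per the labels' processing notes and the study's methods. The deposited counts are whole reads per gene and tumor, without normalization. The authors also deposited FPKM values in tables of their own comparisons (log2 fold changes, p-values), and of these tables only the FPKM and the gene names were used, FPKM for levels between genes. Total counts were 47309780 to 100741339 per tumor.

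Counts were tested with edgeR 4.0.16 in R 4.3.3 (TMM, filterByExpr by cohort, glmQLFit and glmQLFTest, Benjamini-Hochberg over 19315 genes, call at adjusted p under 0.05). The SE is the log2 fold change divided by the square root of F, and intervals are 1.96 SE. Slopes came from cohort plus log2 CPM of *Csf3* (prior count 2; 19314 genes, without *Csf3*), and slope differences from the interaction. Single genes were tested by exact permutation of all 293930 labelings, and correlations with 100000 resamples or exactly (scipy 1.17.1). P-values over tumors treat tumors of 1 mouse as independent, and the labels name no batch. The genes and lists were chosen with earlier results of these data known. Of the marker genes chosen, 1 is not reported here. Named were the 9 genes, *Csf3* and *Grb7*, in each other list the 2 genes of smallest p with a mean log2 CPM over 0, and the 5 genes most like *Csf1r* and *Csf3r*. The self-test on simulated counts, with dispersions as estimated and 100 genes changed at each size among 19059, recovered 42.4% at a log2 change of 1 and 80% at 2 for the cohort test. For the *Csf3* slope, among 19073 genes, it recovered 79% at 1 and 93% at 2, per SD of *Csf3*. Alternatives were DESeq2 1.42.0, no filter, library size, counts summed by mouse, voom in limma 3.58.1 with mouse as a random effect, subsets of tumors and each tumor left out. The label of R-21 gives a mouse that the study's table gives R-20, and both are RhoC tumors.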

Additional observations from a re-analysis of the deposited data

How the results depend on the processing

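Between cohorts, 0 of the 9 genes were called under every alternative run. The number of all genes called, 43, was 1206 with DESeq2 (1093 without its replacement of outlying counts), 27 with library size, 3 with counts summed by mouse, 3 with voom and mouse as a random effect, 22 with voom alone, 438 with only Gata4 loxP/+ controls, 3 without mouse P497, 26 without the squamous tumors, 19 without N-1 and 14 (without N-9) to 346 (without N-15) with 1 tumor left out. The cause was not tested. On *Csf3*, DESeq2 called 4 of the 9 genes and 188 of all genes, no filter gave 2 genes and *Grb7* in place of *Csf3* gave 19, against 0.

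Fold changes turned for *S100a8* to -0.22 with DESeq2, -1.99 with voom and mouse as a random effect, -1.57 with voom alone and -2.6 without the squamous tumors (leaving out 1 tumor, -0.99 to 1.45), for *S100a9* to -1.46 and -0.93 with the same voom fits and -2.18 without the squamous tumors (0.29 to 3.35), and for *Csf3r* to -0.18 with DESeq2 and -0.30 without the squamous tumors (-0.18 to 0.98). Without the replacement of outlying counts DESeq2 gave 0.76, 2.52 and 0.58 for *S100a8*, *S100a9* and *Csf3r*, with no p for these 3, so its turned signs came with that replacement. *Csf1* was 0.11 with Gata4 loxP/+ controls alone (-0.12 to 0.0905 leaving out 1 tumor), and *Retnlg* ranged from -2.96 (without R-6) to 0.0826 (without N-8). The slope of *Csf1r* was 0.0122 without the squamous tumors (-0.0545 to 0.0158) and that of *Csf1* -0.0482 on *Grb7* (-0.0116 to 0.0306). The correlation of *Csf1* was -0.186 without the farthest mice and -0.088 in RhoC mice without N9255, and that of *Mrc1* 0.0184 in RhoC mice and 0.174 without N9255.

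Replicate numbers 1, 6, 7 and 15 occur in both cohorts but do not pair the tumors, whose deviations correlated at -0.237, -0.185, -0.00294 and 0.0217. With the replicate block over these 8 tumors, 0 of the 9 genes and 0 of all genes were called, and as many without the block. *Adgre1* was 0.19 with the block and 0.0602 without it, *Csf1* 0.10 and 0.13, *Retnlg* 0.10 and 2.75, and with the block *S100a8* was -0.45. The 8 tumors without the block, DESeq2 without replacement, voom without the random effect and the fits without N9255 were added after seeing the data. With 0 to 3 reads of *S100a8*, *S100a9* and *Retnlg* in R-21, lower levels there were not detectable at this depth.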

Other observations

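R-6 and the control N-8, the 2 highest tumors for *S100a8*, *Csf3r* and *Retnlg*, parted in other neutrophil genes. These genes were chosen after their values were seen, and each cohort is represented by 1 tumor, so no test was made. N-8 was the highest of the 21 tumors for several granule protein genes: *Mpo*, myeloperoxidase, stood at 32.7 CPM in N-8 and 0.561 in R-6. *Ngp*, a neutrophil granule protein, stood at 72.5 and 2.42 CPM, *Elane*, neutrophil elastase, at 8.94 and 0, and *Camp*, cathelicidin, at 4.77 and 0.280. *Mmp8* stood at 19.0 and 10.1 CPM. The gelatinase gene *Mmp9*, also of granules, went the other way, at 59.7 CPM in N-8 and 353 in R-6.

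R-6 was the highest tumor for several receptor genes. The chemokine receptor gene *Cxcr2* stood at 95.8 CPM in R-6 and 46.5 in N-8, the decoy receptor gene *Il1r2* at 39.8 and 9.32, *Clec4e* at 58.6 and 11.1, and the formyl peptide receptor gene *Fpr1* at 11.3 and 4.41. Other genes of the list were higher in N-8: *Ly6g*, a surface marker of neutrophils, was highest in N-8, at 1.77 CPM and 0.741 in R-6, and *Ceacam10* stood at 52.8 CPM in N-8 and 1.0 in R-6, with its highest value, 136, in R-7. Without *Lcn2*, *Ltf* and *Wfdc21*, the summed CPM of the neutrophil list was 1305 in R-6, 962 in R-13, 507 in N-8 and 351 in R-14, and 51.3 to 246 in the other 17 tumors. In R-13 the largest single value of the list was that of *Mmp9*, 792 CPM, the highest of any tumor.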
